A study of Mus musculus with 8 samples.

Results

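The p53 target genes examined here are 10 genes that the transcription factor p53 is known to activate directly: Cdkn1a, Mdm2, Ccng1, Bax, Bbc3, Pmaip1, Trp53inp1, Phlda3, Eda2r and Zmat3. They were chosen by name from knowledge of the pathway, with earlier results of these data known. All 10 were found by symbol among the 52636 gene identifiers counted. RNAseq had been carried out on S0 cells of fetal livers at E12.5, with 4 WT libraries and 4 libraries from Vps13a/Vps13c double knockout (DKO) embryos. S0 cells are live liver cells negative for a cocktail of lineage markers, for CD71 and for Ter119, and they are labelled as erythroid precursors. DKO embryos were offspring of Vps13a+/-/Vps13c-/- mice on a C57BL/6J background, and their Vps13a allele had lost an exon in all tissues through a β-actin-Cre transgene. The study's text gives the same matings as the source of its WT embryos, but parents that both lack Vps13c cannot have WT offspring, so that the origin of the WT embryos is unclear. Whether each library is 1 embryo is not given in the sources used here. If libraries share embryos, the p-values below measure a spread that is partly technical.

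p53 is held at a low level by Mdm2, a ubiquitin ligase that marks it for destruction and that p53 itself induces, which closes a feedback loop. DNA damage, ribosome stress and other insults release p53 from Mdm2, and its activity then rises through protein stability with little need for more Trp53 mRNA. Its targets stop the cell cycle (Cdkn1a, which encodes p21), feed back on p53 (Mdm2 and Ccng1), start mitochondrial apoptosis (Bax, Bbc3 and Pmaip1) or modulate survival and RNA (Trp53inp1, Phlda3, Eda2r and Zmat3). In erythroid cells, p53 is known for the anemia that follows defects of ribosome synthesis.

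Of the 10 p53 targets, 4 rose in DKO at an adjusted p under 0.05, and 0 fell (0 also at an unadjusted p under 0.05, and 0 with DESeq2). These were Cdkn1a, Bax, Bbc3 and Phlda3, against 10.7% of all 17378 genes tested that were higher and 10.8% that were lower at the same threshold. With the added requirement of a log2 fold change above 1, 3 of the 10 were called higher (6.19% of all genes) and 0 lower (2.43%). The negative-feedback targets Mdm2 and Ccng1 did not pass in either direction. Their means were lower in DKO. All 10 targets passed the low-count filter. Their median log2 fold change was 0.56, and over all genes tested it was 0.03. With 1 library left out, the number of targets higher in DKO ranged from 2 (without WT replicate 1 or WT replicate 4) to 5 (without DKO replicate 2).

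Total counts per library lay between 42114489 and 50886469 in WT and between 36981439 and 42587815 in DKO. Vps13a was reduced in DKO (log2 fold change -1.29, edgeR adjusted p = 0.00247), while the count over the whole Vps13c gene was not (0.49, adjusted p = 0.182) and therefore does not check the label. All 12 erythroid markers listed were detected, and so were all 8 hepatoblast markers, including Alb and Afp, so that these are bulk samples with RNA of more than 1 cell type. In such samples, fewer cells of a type and less RNA per cell cannot be told apart. Y-linked transcripts were present in every WT library and, among the DKO libraries, in replicate 3, while the other DKO libraries had high Xist and almost none. The 7 mesenchyme markers summed to between 1911 and 5576 normalized counts in WT and between 12083 and 42817 in DKO, with the highest sum in DKO replicate 1, and 6 of the 7 rose. Pdgfra, Col1a1 and Col3a1 were above 0 in every library, and no marker of this list was at 0 throughout a genotype. Sums of 8 progenitor markers were 38990 to 48050 in WT and 20164 to 26568 in DKO, and 5 of the 8 fell. Of 6 endothelial and 6 macrophage markers, 1 each fell (Pecam1 and Adgre1) and the others did not pass. The endothelial sums (2651 to 3476 in WT, 1619 to 1984 in DKO) consist mostly of Pecam1, Kdr and Tek, and the macrophage sums (2060 to 2946 and 448 to 1280) mostly of Csf1r in every library but DKO replicate 1. Csf1r had an edgeR adjusted p of 0.0961. The 7 neural markers, 3 of them tested, summed to 125 to 218 in WT and 269 to 2791 in DKO, again highest in DKO replicate 1. Hepatoblast markers summed to 491151 to 683121 in WT and 163973 to 597557 in DKO, lowest in DKO replicate 3.

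Cdkn1a lies on chromosome 17 (29090976 to 29100727, plus strand, GRCm38 or mm10) and encodes p21, an inhibitor of cyclin-dependent kinases. Normalized counts, which are counts scaled to a common effective library size, were 760.3, 817, 732 and 629 in WT replicates 1 to 4. They were 1041, 1368, 1692 and 2323 in DKO replicates 1 to 4. The genotypes did not overlap, and the DKO libraries differed among themselves by more than the WT libraries did. DKO reached 1606 ± 547 against 734.5 ± 78.8 in WT (mean ± SD, n = 4), 2.19 times as much. The log2 fold change of Cdkn1a was 1.13 with a standard error (SE) of 0.22 and an edgeR adjusted p of 0.00953. A two-sided exact permutation test gave p = 0.0286, the smallest that 4 against 4 libraries allow. The adjusted p stayed under 0.05 in each of the 8 fits that left out 1 library (up to 0.0375). Without DKO replicate 4, the highest library, the log2 fold change was 0.90, below the fold required for a call. An annotated transcript of unknown type on the opposite strand, AC167363.2, shares 273 exon bases with Cdkn1a, and reads of the 2 cannot be told apart where counting used no strand.

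Promoter sequence of Cdkn1a and of 3 further targets is shown because it holds matches to the p53 binding motif, in genes that rose and in genes that did not pass. The p53 consensus is built of 2 decamers, and a decamer reads as the same motif on both strands. RefSeq promoters of GRCm38.p6, from 250 bases before the start site to 50 after it, were found for 7 of the 10 targets. A decamer was present in 4 of them (Cdkn1a, Bax, Mdm2 and Ccng1) and absent from the windows of Bbc3, Phlda3 and Eda2r. Over all 32851 promoter windows, 8.36% held at least 1, and counted by gene the share was 9.55% of 27025. Stretches of 100 bases around the matches are printed from 5′ to 3′ on the strand of the gene, with the decamers in capitals:
Cdkn1a: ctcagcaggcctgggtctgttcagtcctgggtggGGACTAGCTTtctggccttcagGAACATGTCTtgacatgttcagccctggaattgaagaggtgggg
Bax: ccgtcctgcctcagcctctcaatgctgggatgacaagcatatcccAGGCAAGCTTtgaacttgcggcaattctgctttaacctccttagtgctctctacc
Mdm2: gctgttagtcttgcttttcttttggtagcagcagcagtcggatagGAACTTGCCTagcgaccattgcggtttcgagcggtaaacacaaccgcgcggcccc
Ccng1: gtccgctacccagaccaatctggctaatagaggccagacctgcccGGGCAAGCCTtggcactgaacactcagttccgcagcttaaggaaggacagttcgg

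The Cdkn1a stretch is chr17:29090872-29090971 on the plus strand, the Bax stretch chr7:45467045-45467144, the Mdm2 stretch chr10:117710890-117710989 and the Ccng1 stretch chr11:40755417-40755516, the last 3 on the minus strand. The matches began 73 and 51 bases before the upstream start site in Cdkn1a, 201 before the start site in Bax, 186 in Mdm2 and 185 in Ccng1. A further Cdkn1a window, of a start site farther downstream (chr17:29093519-29093818), held no decamer. The Mdm2 window lies at the outer end of the gene, so that the inner promoter, the one that p53 drives, was not searched. Among the windows of the targets, only the upstream one of Cdkn1a held 2 decamers no more than 13 bases apart. Such pairs were present in 24 of the 32851 windows (0.0731%). A second search, chosen after these letters were seen, asked for 2 joined decamers with at most 1 mismatch in 20 bases. It found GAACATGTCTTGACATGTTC in Cdkn1a and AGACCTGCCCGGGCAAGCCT in Ccng1, and such a pair in 29 windows in all (0.0883%). Of the 2 genes with a joined pair, Cdkn1a rose and Ccng1 did not pass the test, and of the 4 genes with a decamer 2 rose. These matches describe the letters in the windows and do not show binding.

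Bax, on the minus strand of chromosome 7 from 45461697 to 45466898, encodes the pore-forming protein of mitochondrial apoptosis. It had 7233, 7061, 7976 and 6630.3 normalized counts in the WT libraries and 9991, 11208, 11005 and 11905 in the DKO libraries. No library of one genotype reached the range of the other, and Bax varied least between libraries among the targets that rose. Bax rose 1.53-fold from 7225 ± 561 to 11027 ± 791 (mean ± SD, n = 4), and the log2 fold change of Bax was 0.61 (SE 0.09, edgeR adjusted p = 0.00303, exact permutation p = 0.0286). This is below the fold required for a call. The log2 fold change stayed between 0.56 and 0.66 with 1 library left out. A gene annotated on the same strand, Gm45808, shares 192 exon bases with Bax but had at most 3 counts in a library.

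Bbc3, on the plus strand of chromosome 7 from 16308393 to 16318205, encodes PUMA, a BH3-only protein that frees Bax from its inhibitors. Normalized counts were 135, 253, 234 and 225 in WT and 356, 457, 397 and 746 in DKO. The lowest DKO library exceeded the highest WT library, and DKO replicate 4 was well above the rest. Bbc3 rose 2.31-fold from 212 ± 52.4 to 489 ± 176 (mean ± SD, n = 4), and the log2 fold change of Bbc3 was 1.21 (SE 0.30, edgeR adjusted p = 0.0206, exact permutation p = 0.0286). Its adjusted p was 0.0608 without WT replicate 1 and 0.0587 without WT replicate 4, at 1.04 and 1.23 on the log2 scale, and without DKO replicate 4 the value was 0.93. Bbc3 is also known as a target of CHOP, a transcription factor of the integrated stress response.

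Pmaip1, which encodes the other BH3-only protein of the list, NOXA, showed no such difference. Its normalized counts were 639.8, 684, 379.6 and 548 in WT against 296, 593, 916 and 396 in DKO, and the libraries of both genotypes were interleaved. With 563 ± 135 in WT against 550.2 ± 273 in DKO (mean ± SD, n = 4), the log2 fold change of Pmaip1 was -0.03 (SE 0.34, edgeR adjusted p = 0.958, exact permutation p = 0.771). Its sign turned under several settings, and a rise as large as that of Bax lies within 2 SE of the estimate. DKO replicate 3, the only DKO library with Y-linked transcripts, had the highest Pmaip1 count and DKO replicate 1 the lowest.

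Phlda3, on the plus strand of chromosome 1 from 135766119 to 135769136, encodes a small pleckstrin homology protein that restrains AKT. The libraries held 228, 189, 388 and 208 normalized counts in WT against 534, 356, 560.4 and 617 in DKO. WT replicate 3 lay above DKO replicate 2, and the other libraries were separated by genotype. Phlda3 rose from 253.5 ± 91.3 to 517 ± 113 (mean ± SD, n = 4), and the log2 fold change of Phlda3 was 1.03 (SE 0.28, edgeR adjusted p = 0.0296, exact permutation p = 0.0571). Of the targets that passed, Phlda3 was lost most easily. Its adjusted p exceeded 0.05 in 5 of the 8 fits with 1 library left out (those that lacked WT replicate 1, 2 or 4 and those that lacked DKO replicate 3 or 4) and reached 0.0902, with log2 fold changes of 0.91 or more in all 8.

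**Figure D1:**
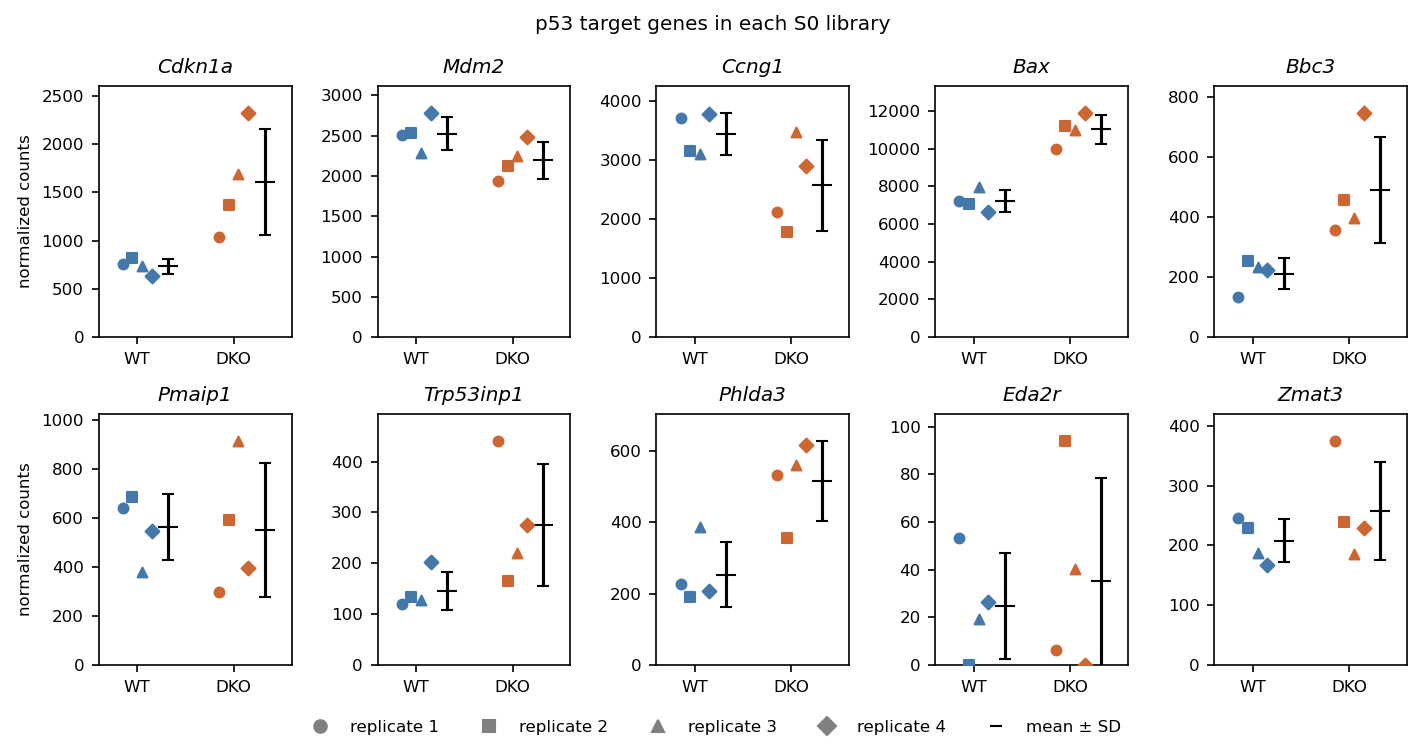
Normalized counts (vertical axes, each starting at 0) of the 10 p53 targets in the 4 WT and 4 DKO libraries, with 1 symbol per replicate and bars for mean ± SD (the DKO bar of Eda2r is cut off at 0). Cdkn1a, Bax and Bbc3 are the 3 genes whose DKO libraries all lie above the WT libraries, as for 13.5% of all genes tested. Mdm2 and Ccng1 have lower means in DKO with overlapping libraries.

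Mdm2, on the minus strand of chromosome 10 from 117688875 to 117710758, had 2505, 2529, 2280.4 and 2781 normalized counts in WT against 1931, 2128, 2245 and 2479 in DKO. DKO replicate 4 lay within the WT range and the other DKO libraries below it. With 2524 ± 205 in WT against 2196 ± 229 in DKO (mean ± SD, n = 4), the log2 fold change of Mdm2 was -0.20 (SE 0.10, edgeR adjusted p = 0.190, exact permutation p = 0.0571). In none of the alternatives did Mdm2 pass, and its log2 fold change stayed below 0 in each. The count covers the whole gene, so that transcripts from its 2 promoters, of which p53 drives the inner, were not told apart.

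Ccng1, on the minus strand of chromosome 11 from 40748552 to 40755311, encodes cyclin G1, which recruits the phosphatase PP2A to Mdm2. There were 3715, 3158, 3105 and 3791 normalized counts in WT against 2122, 1782, 3483 and 2903 in DKO. DKO replicate 3 alone overlapped the WT libraries. With 3442 ± 361 in WT against 2573 ± 767 in DKO (mean ± SD, n = 4), the log2 fold change of Ccng1 was -0.42 (SE 0.19, edgeR adjusted p = 0.148, exact permutation p = 0.114). Leaving out DKO replicate 3 gave -0.60 with an adjusted p of 0.0323, which would count Ccng1 as lower.

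The remaining 3 targets did not pass. Trp53inp1, a stress-induced partner of p53 on chromosome 4 (11156431 to 11174379), had 119, 133, 128 and 202 normalized counts in WT against 441, 165, 219.8 and 275 in DKO. The genotypes overlapped only through WT replicate 4 and DKO replicate 2, and the log2 fold change of Trp53inp1, 0.92 (SE 0.34), had an edgeR adjusted p of 0.0845. DESeq2 gave an adjusted p of 0.0384 for it, and edgeR 0.0494 without DKO replicate 2. Zmat3, a zinc finger protein that binds RNA (chromosome 3 from 32334792 to 32366014), had 168 to 246 normalized counts in WT against 186 to 375 in DKO, with the highest value in DKO replicate 1 (log2 fold change 0.31, SE 0.27, adjusted p = 0.460). Eda2r, a receptor for an isoform of ectodysplasin on the X chromosome (97333840 to 97377216), had 51, 0, 22 and 30 counts before scaling in WT and 6, 81, 33 and 0 in DKO. With a library of each genotype at 0 counts, no difference in Eda2r was detectable at this depth.

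**Figure D2:**
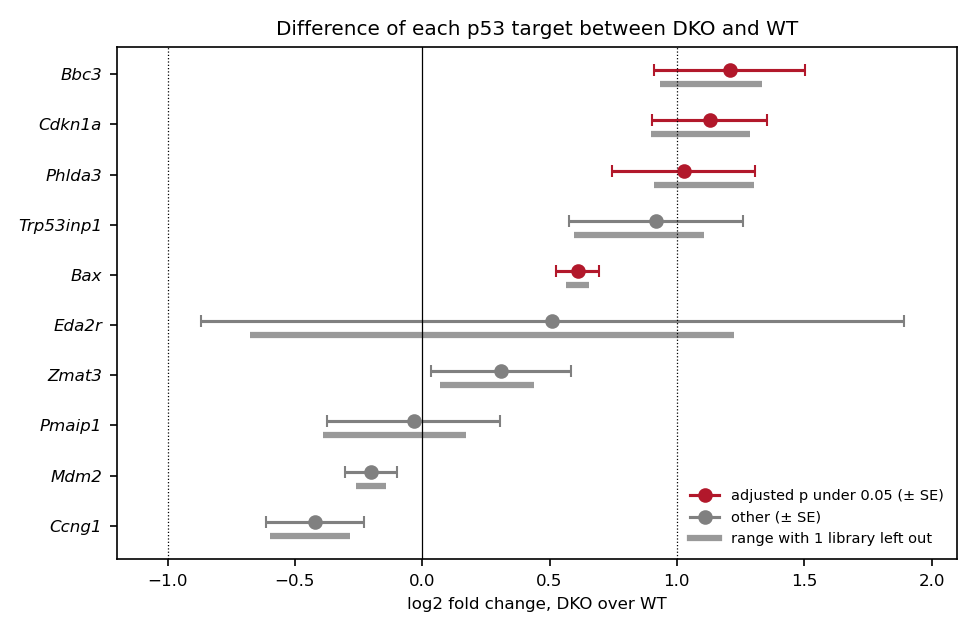
Log2 fold change of each p53 target between DKO and WT from edgeR (points, bars ± SE), with grey bars for the range over the 8 fits that each left out 1 library and dotted lines at -1 and 1. The 4 targets in red passed an adjusted p of 0.05, with Bax at 0.61, Phlda3 at 1.03, Cdkn1a at 1.13 and Bbc3 at 1.21, and the range of Eda2r and that of Pmaip1 cross 0.

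Levels between genes were compared per length, as normalized counts per kilobase of annotated exon. Bax was the most abundant target in both genotypes, with means of 4585 per kilobase in WT and 6997 in DKO. In WT, Ccng1 at 980.1 and Mdm2 at 496 followed, each separated from its neighbours, and Cdkn1a at 207, Pmaip1 at 206 and Phlda3 at 163 overlapped in turn. Bbc3 at 99.6 per kilobase was followed by Trp53inp1 at 22.5, Zmat3 at 18.2 and Eda2r at 4.19. In DKO, the order of the levels differed. Cdkn1a at 452 per kilobase stood beside Mdm2 at 432, and Phlda3 at 332 and Bbc3 at 230.2 stood above Pmaip1 at 201. In DKO, each gene from Ccng1 down to Pmaip1 overlapped the next in its range over libraries, while genes farther apart could be separated. Ccng1, for example, lay above Mdm2, Phlda3, Bbc3 and Pmaip1 in every library, and the ranges of Mdm2 and Bbc3 did not meet.

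Within the DKO libraries, the targets did not share a single order. Cdkn1a, Mdm2, Bax, Bbc3 and Phlda3 were highest in DKO replicate 4, Trp53inp1 and Zmat3 in DKO replicate 1, Ccng1 and Pmaip1 in DKO replicate 3, and Eda2r in DKO replicate 2. The median difference of the 10 targets from the WT mean, on the log2 CPM scale, was between 0.38 and 0.68 in the 4 DKO libraries and between -0.06 and 0.06 in the WT libraries. In DKO replicate 3, which like the WT libraries has Y-linked transcripts, the 4 targets that passed all lay above every WT library, at 1692 against at most 817 normalized counts for Cdkn1a, 11005 against 7976 for Bax, 397 against 253 for Bbc3 and 560.4 against 388 for Phlda3. These 4 had passed a test that included DKO replicate 3, so that their high counts there follow in part from that choice. Of the other targets, Pmaip1 and Trp53inp1 lay above every WT library in DKO replicate 3, and Mdm2, Ccng1, Zmat3 and Eda2r did not. As all WT libraries have Y-linked transcripts, a fit with a term for them sets DKO replicate 3 alone against WT. In this fit the log2 fold changes of Cdkn1a, Bax, Bbc3 and Phlda3 were 1.20, 0.61, 0.91 and 1.14. These values restate the difference of DKO replicate 3 from WT and are no estimate over all DKO libraries. Without DKO replicate 1, in which the mesenchyme markers were highest, the log2 fold changes of Cdkn1a, Bax, Bbc3 and Phlda3 were 1.29, 0.66, 1.33 and 1.01, and all 4 passed.

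The mRNA of p53 itself did not rise. Trp53 (plus strand of chromosome 11 from 69580359 to 69591873) had 12038, 12279, 12034 and 11769 normalized counts in WT against 9179, 11626, 12051 and 9889 in DKO, and DKO replicates 1, 2 and 4 lay below the WT libraries (log2 fold change -0.17, SE 0.10, edgeR adjusted p = 0.229). Mdm4, the partner of Mdm2 that blocks p53 activity, had 3226 ± 358 normalized counts in WT against 3203 ± 371 in DKO (mean ± SD, n = 4), with a log2 fold change of -0.01 and an adjusted p of 0.961. A list of 22 genes held Trp53, its relatives and regulators of p53, and 18 of them were tested. Among these, 1 rose and 1 fell, against 10.7% and 10.8% of all genes tested. Rpl11, a ribosomal protein that binds Mdm2 when ribosome assembly fails, rose (0.37, SE 0.09, edgeR adjusted p = 0.0168). Rpl5, another ribosomal protein of the list, did not pass (0.19, edgeR adjusted p = 0.166). Atm, the kinase that signals DNA double-strand breaks, fell (-0.46, SE 0.13, edgeR adjusted p = 0.0307). Leaving out 1 library moved the adjusted p behind the log2 fold change of Rpl11 above 0.05 in 3 of 8 fits (up to 0.0681), and that behind the log2 fold change of Atm in 5 of 8 (up to 0.0892), as did upper-quartile scaling for Atm (0.0696). The related genes Trp63 and Trp73 and the p53 activator Cdkn2a were at 0 counts in all libraries.

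Other known targets of p53 went both ways. Of 46 further targets listed, 44 were tested, 9 rose and 4 fell at an adjusted p under 0.05 (10.7% and 10.8% of all genes), and 31 did not pass. Their median log2 fold change was 0.01. Of the 23 genes of cell cycle arrest and DNA repair, 6 rose. Ptprv, a receptor-type phosphatase, rose from 161 ± 31.5 to 892 ± 137 normalized counts (log2 fold change 2.47, SE 0.20, adjusted p = 0.000268), Gadd45a from 335 ± 34.2 to 950.5 ± 373 (2.83-fold, adjusted p = 0.00531), Sesn2 from 963 ± 75.9 to 2206 ± 778 (1.20, adjusted p = 0.00643) and Psrc1, a spindle protein, from 934 ± 59.6 to 1417 ± 149 (0.60, adjusted p = 0.00782). For each of these 4, named for the lowest p of their list, every DKO library lay above every WT library, as for 13.5% of all genes. Their adjusted p stayed under 0.05 with any 1 library left out. The other 2 that rose were the polo-like kinase genes Plk3 and Plk2. The adjusted p behind the log2 fold change of Plk2 exceeded 0.05 in 6 of 8 such fits (up to 0.118).

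In the same list, 3 genes fell. Sesn1, which like Sesn2 encodes a sestrin that restrains mTORC1, had 1796, 1962, 1810.4 and 2437 normalized counts in WT against 1063, 673, 852 and 784 in DKO (log2 fold change -1.25, SE 0.16, edgeR adjusted p = 0.00247). The sestrins therefore differed in opposite directions, and every DKO library lay on its own side of the WT range for both. Xpc, which recognizes damage in nucleotide excision repair, fell from 2159 ± 130.3 to 1185 ± 206 (log2 fold change -0.87, adjusted p = 0.00382), and Gtse1, a regulator of p53 in the G2 phase, from 2296 ± 196 to 1582 ± 197 (-0.54, adjusted p = 0.0116).

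Of the 21 tested genes of death, metabolism and signalling, 3 rose and 1 fell. Ddit4, which encodes the mTORC1 inhibitor REDD1, had 141, 212, 262 and 239 normalized counts in WT against 2010.0, 2370.1, 767 and 5022 in DKO (log2 fold change 3.57, SE 0.51, edgeR adjusted p = 0.0031). The extracellular sulfatase gene Sulf2 rose by 3.40 on the log2 scale (SE 0.63, adjusted p = 0.00746), with 4289 normalized counts in DKO replicate 1, where the mesenchyme markers were highest, and between 735 and 997 in the other DKO libraries. Without that library its log2 fold change was 2.37. Pltp, a phospholipid transfer protein, rose from 36.9 ± 11.7 to 115 ± 43.9 normalized counts (1.63, adjusted p = 0.0246), and the call behind the log2 fold change of Pltp was lost in 5 of 8 fits with 1 library left out (adjusted p up to 0.0728). Perp, a membrane protein of p53-dependent apoptosis, fell from 1564 ± 200 to 449 ± 207 (-1.80, SE 0.31, adjusted p = 0.00578), with no overlap between the genotypes. The fit with the term for Y-linked transcripts sets DKO replicate 3 alone against WT, so that its counts are not set beside these.

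**Figure D3:**
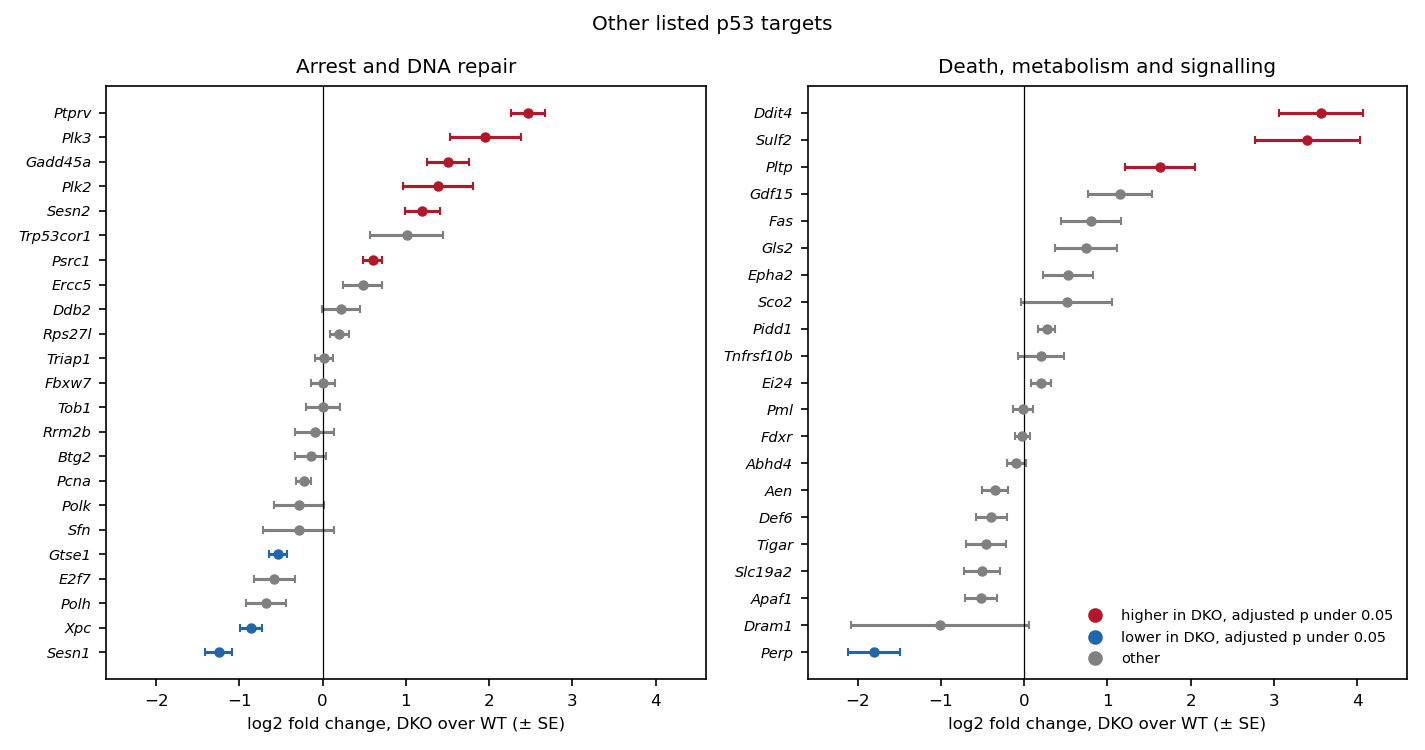
Log2 fold change between DKO and WT (horizontal axis, points with bars ± SE) of the other listed p53 targets, in 2 panels by role. Genes in red rose and genes in blue fell at an adjusted p under 0.05, and genes in grey did not pass, with Ddit4 at 3.57 and Perp at -1.80 the farthest apart.

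Genes related to the 10 targets in sequence or function were compared next. Of 21 paralogs and partners listed, 19 were tested, 2 rose and 2 fell, shares near those over all genes (10.7% and 10.8%). Cdkn1c, a CDK inhibitor of the same family as Cdkn1a, had 1646, 1718, 2267 and 2074 normalized counts in WT against 9604, 3522, 3400.2 and 5176 in DKO (log2 fold change 1.49, SE 0.31, edgeR adjusted p = 0.0114), again highest in DKO replicate 1. Phlda1, a relative of Phlda3, rose from 1145 ± 132 to 2343 ± 750 (1.03, adjusted p = 0.0105). Cdk2, the kinase that p21 inhibits, fell from 6868 ± 1110 to 4599.5 ± 636 (-0.58, adjusted p = 0.0195), and Bcl2l1, which encodes the Bax inhibitor BCL-XL, from 4638 ± 396 to 3193 ± 844 (-0.54, adjusted p = 0.0437). With 1 library left out, the log2 fold change of Cdk2 missed the threshold in 3 of 8 fits (adjusted p up to 0.0613) and the log2 fold change of Bcl2l1 in 7 of 8 (up to 0.117).

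p21 is known to lower genes of DNA replication and mitosis through RB-family repressor complexes. Of 24 such genes listed, 12 fell in DKO (10.8% of all genes) and 0 rose (10.7%). At an unadjusted p under 0.05 and with DESeq2, 0 rose as well. The other 12 did not pass, and the median log2 fold change was -0.33. Bub1b, a spindle checkpoint kinase, fell by 0.76 on the log2 scale (SE 0.10, edgeR adjusted p = 0.00243), the replicative helicase subunit Mcm6 by 0.65 (adjusted p = 0.00308) and the mitotic kinase Aurkb by 0.55 (adjusted p = 0.0056), and none of the 24 reached a log2 fold change of -1. Of the 24 genes, 12 had all DKO counts under the WT range, as did 14.6% of all genes. The number that fell was 5 without WT replicate 1 or WT replicate 4, 7 without WT replicate 2 or DKO replicate 4 and 7 with upper-quartile scaling. The term for Y-linked transcripts leaves DKO replicate 3 alone against WT, and its count is not set beside these. Among the DKO libraries, DKO replicate 3 had the highest count for 16 of the 24 genes. The part of p21 and of the mix of cell types in the lower counts of these genes was not tested.

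Some targets are shared with the integrated stress response, in which ATF4 and CHOP are the transcription factors, and Sesn2, Ddit4 and Bbc3 are known to answer to it as well as to p53. Of 16 listed genes of that response, which did not include these 3, 12 rose (10.7% of all genes) and 0 fell (10.8%). At an unadjusted p under 0.05 and with DESeq2, 0 fell as well. The median log2 fold change of the 16 was 1.54. Trib3, a pseudokinase induced by CHOP, had 133, 145, 169 and 139 normalized counts in WT against 2305, 4093, 2115 and 9658 in DKO (log2 fold change 4.95, SE 0.51, edgeR adjusted p = 0.000962). The cystine transporter Slc7a11 rose by 4.08 on the log2 scale (adjusted p = 0.00143) and Nupr1, a stress-induced nuclear protein, by 3.89 (adjusted p = 0.0021). The count from the fit with the term for Y-linked transcripts is not set beside these, as it rests on DKO replicate 3 alone against WT. DKO replicate 4 had the highest count among the DKO libraries for 12 of the 16 stress genes, as for Cdkn1a, Bax, Bbc3 and Phlda3. It also had the highest for Mdm2, which did not rise. Of the 12 erythroid markers, 6 were highest among the DKO libraries in DKO replicate 4, globin genes included, and 6 in DKO replicate 3. The part of the stress response, of the mesenchyme RNA and of the sex-linked difference in the rise of the 4 targets was not tested.

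**Figure D4:**
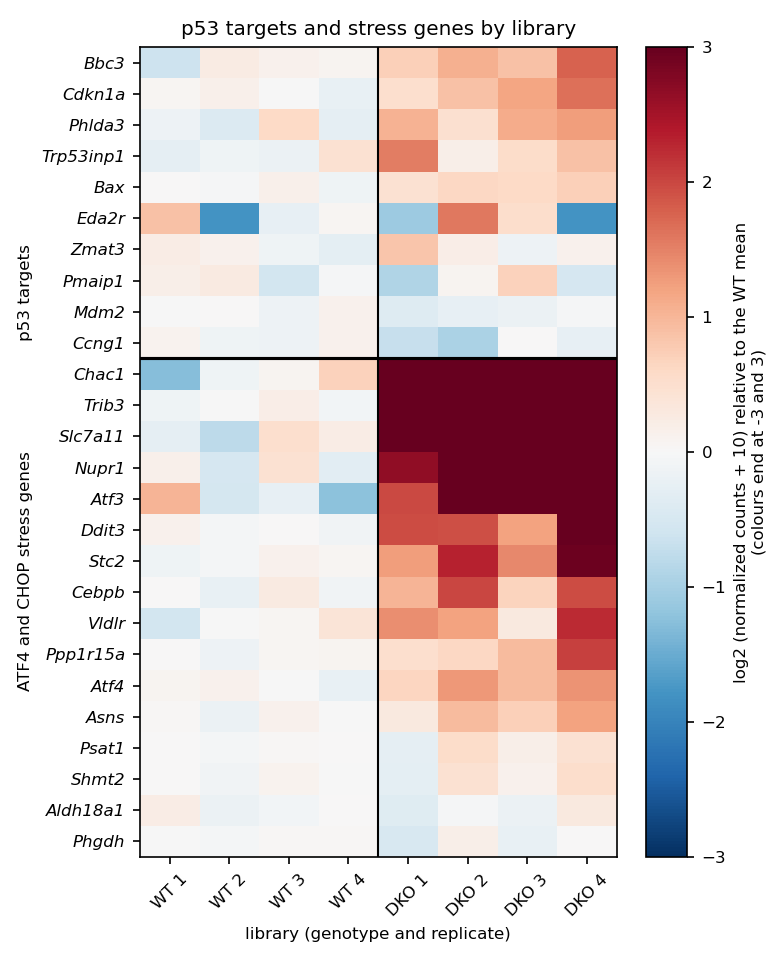
Normalized counts (with 10 added) of the p53 targets (upper block) and the ATF4 and CHOP stress genes (lower block) in each library, as log2 relative to the WT mean, with colours ending at -3 and 3. The upper rows, Bbc3 and Cdkn1a, and most stress genes are strongest in DKO replicate 4, while Mdm2 and Ccng1 at the foot of the upper block are at or below the WT mean in most DKO libraries.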

How the data were processed

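The authors trimmed reads with fastp 0.21.0, mapped them to mm10 with HISAT2 2.2.1, dropped alignments with a quality under 20 and counted reads per gene with StringTie 1.3.3b and prepDE. The deposited values are raw counts in 8 columns, without normalization, and each column was matched to a sample by its library name. The strand setting is not given in the sources used here. Symbols and positions came from GENCODE M21 (GRCm38), where 52403 of 52636 identifiers matched with the version ignored. For S0 cells of 4 WT and 4 DKO libraries, genes were filtered with filterByExpr, scaled by TMM and compared with edgeR 4.0.16 (R 4.3.3) by the robust quasi-likelihood test with no covariate and Benjamini-Hochberg adjustment over all 17378 genes tested. Genes were called at an adjusted p under 0.05, with a log2 fold change beyond 1 where stated. Exact permutation tests used log2 CPM over 70 arrangements.

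The 10 targets and the gene lists were chosen with earlier results of these data known. Named genes were the 10 targets, Trp53, Mdm4, Vps13a, Vps13c, Xist, Ddx3y, summed markers with a few defining ones, and from each list those of lowest p with an adjusted p under 0.05, up to 4 in each direction (3 for the cell cycle and stress lists). Plk2, Plk3, Rpl5, and genes named as absent, for an overlap or for their part in a marker sum were chosen after their values were seen. On simulated counts for this comparison (17144 genes), 182 of 200 genes changed by a log2 fold change of 2 were recovered, with 9 false calls. That change is larger than the difference of any of the 10 targets, so that recovery of differences of their size was not measured. No pair of libraries within a genotype matched within sampling noise (chi-square per gene of at least 18.9). Alternatives were DESeq2 1.42.0, other scalings and filters, protein-coding genes only, leaving out each library, a replicate block and a term for Y-linked transcripts (libraries above 10 CPM).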

Additional observations from a re-analysis of the deposited data

Results flagged for a closer look

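Of 22 groups of 4 libraries (the 10 targets and Trp53, in each genotype), 1 held a library far from the rest by Dixon's criterion, and chance alone marks about 1 in 20. WT replicate 4 had 202 normalized counts of Trp53inp1 against 119 to 133 in the other WT libraries, a gap of 0.83 of the range, just above the critical value. Leaving WT replicate 4 out gave 1.11 for the log2 fold change of Trp53inp1 (edgeR adjusted p = 0.0886).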

How the results depend on the processing

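Of 1237 values under alternatives, 1019 kept their direction and side of the threshold or stayed within 1.5 times for counts, and 12 changed sign. With 1 library left out, genes called higher in DKO ranged from 566 (without WT replicate 1) to 1148 and genes called lower in DKO from 243 (without WT replicate 4) to 521, genes higher in DKO at adjusted p under 0.05 from 858 to 1915 and genes lower in DKO at adjusted p under 0.05 from 898 to 2012. The targets higher in DKO ranged from 2 to 5, those lower from 0 to 1 (Ccng1, without DKO replicate 3), those called higher from 0 (without DKO replicate 4) to 4, and their median log2 fold change from 0.47 to 0.74. The log2 fold change of Pmaip1 ranged from -0.39 to 0.17 and that of Eda2r from -0.68 to 1.22. The number of further targets that rose ranged from 7 to 13 (without DKO replicate 3), and of those that fell from 4 to 6.

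Upper-quartile scaling moved the median of all genes by 0.109 on the log2 scale and the count of genes higher in DKO at adjusted p under 0.05 from 1867 to 2492 and of genes lower in DKO at adjusted p under 0.05 from 1878 to 1242. The log2 fold change of Pmaip1 was then 0.071, within that shift, and with protein-coding genes only it was 0.0016. With the term for Y-linked transcripts, genes called higher in DKO numbered 273, and 476 rose and 618 fell at the adjusted p. Of the targets, 1 rose and 0 were called higher, and of the further targets 2 rose and 1 fell. In that fit, the log2 fold changes of Ccng1, Pmaip1, Zmat3 and Trp53 turned to 0.017, 0.70, -0.16 and 0.0026. The genotype difference in that fit is that of DKO replicate 3 alone from the WT libraries, so that these counts rest on 1 DKO library.

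Libraries with the same replicate number did not deviate together (correlations from -0.0702 to 0.0357, and none matched its own number best), so the numbers do not pair them. A fit with replicate number as a block gave 613 for genes called higher in DKO, 1026 for genes higher in DKO at adjusted p under 0.05 and 1083 for genes lower in DKO at adjusted p under 0.05, kept the 4 targets higher in DKO, and gave Eda2r a log2 fold change of -0.57. At this depth, counts of Eda2r limit what can be said of it.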
